A study of Rattus norvegicus with 16 samples.

Results

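Cultured rat hepatocytes treated with SQ1 were compared with untreated hepatocytes on 8 2-colour arrays, out of 16 arrays in the series. These are the arrays whose labels name SQ1; the other 8 compared pravastatin with untreated cells. Primary hepatocytes came from male Sprague Dawley rats and were kept in Williams Medium E. From 48 hours after plating they received 100 µM SQ1, 30 µM pravastatin or no drug, for 48 hours. RNA of a treated and of an untreated culture was labelled with the dyes A555 and A647 and put on the same array. The treated RNA carried A555 on 4 of the SQ1 arrays and A647 on the other 4. The labels name no genotype or genetic change, and the file names give both drugs the same control numbers, so untreated cells may have served both. SQ1 is a code name in the labels. In hepatocyte work it stands for squalestatin 1, an inhibitor of squalene synthase, and pravastatin is a statin, which blocks the same pathway further upstream.

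Hepatocytes make most proteins of the blood plasma, store and release glucose, turn amino acid nitrogen into urea, and clear drugs and bile acids. In culture these functions depend on a set of liver transcription factors, among them HNF4 and the forkhead proteins, and on the sugar sensor ChREBP, which switches on genes of glycolysis and fructose use. Lysosomes, which break down material taken up by the cell, carry the nutrient sensor around the RagGTPases, and the MiT/TFE transcription factors raise lysosomal genes when that sensor is off. Genes of cholesterol synthesis, sterol uptake, fatty acid synthesis, and the targets of CAR, PXR and PPARalpha were set aside here, since the account is of the changes beyond them.

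The 8 SQ1 arrays fell into 2 sets of 4 arrays each, by the control numbers in the names of the scanner files. Each set was on slides and a scan day of its own. The sets are called culture series below, but no label says that their cultures were made apart. Log ratios of the SQ1 arrays correlated with each other at 0.752 to 0.956 over 20753 genes. Between 72.2% and 86.2% of the spots of an SQ1 array were well above background, and no spot was saturated. The columns of the deposited value table held the arrays of the other drug, with a correlation of 0.938 to 1 against 0.421 to 0.562 for the array of the same label, so the labels of the table or those of the scanner files are exchanged, and these values do not settle which. The scanner files were used, and the drug names below rest on their labels. If those are the exchanged ones, every value given for SQ1 belongs to pravastatin, and the reverse. Arrays of both drugs with the same control number may share their untreated control. A shared control would enter the ratios of both drugs, and its part in changes common to both was not tested. The labels do not say whether the replicates came from separate rats, so the p-values measure the spread between these samples, which may be technical. All changes are log2 of SQ1-treated over untreated cells, as the average of both dye orientations ± SE with n = 8 arrays, where a log2 change of 1 is a fold of 2.

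Cells treated with SQ1 differed from untreated cells in 63.8% of the 20753 genes tested, at an adjusted p under 0.05 in limma. Of these, 32.6% of all genes were called up and 31.2% down. Most of these changes were small, since 88.4% of the called genes moved by less than 1.5-fold. Rises of at least 1.5-fold were called for 629 genes (3.03%) and falls for 911 genes (4.39%). Falls were more frequent among the larger changes with loess normalisation, but not with median centring, which gave 774 rises and 761 falls, while the median over all genes was 0.01. Of these 1540 genes, 7.42% of those tested, 1532 moved the same way on all 8 arrays, and 1539 did so in the average of either dye orientation. Changes of at least 2-fold were called up for 229 genes and down for 269. Of those, 57 of the risen and 11 of the fallen genes were in the lists set aside, which hold only 164 of the genes tested. Probes without a symbol cannot be in a list, and 171 of the risen and 219 of the fallen genes had a symbol. Pravastatin gave calls for 39% of the genes, and SQ1 and pravastatin differed in 37.9%. Every count of list members called below is to be set beside the 32.6% up and 31.2% down over all genes. A list with shares near these has no direction of its own.

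Markers of the cell types that a hepatocyte culture can hold were read first. All 15 hepatocyte markers measured fell, with a median of -0.77, and the median over these markers on a single array ran from -1.23 to -0.2. Albumin (Alb) changed by -0.55 ± 0.07 and transthyretin (Ttr) by -0.24 ± 0.04, or 0.01 with median centring. The smallest fall of the 15, -0.08 ± 0.03 for the liver transcription factor Hnf4a, did not pass the test without replicate 3 (-0.08), 7 (-0.08) or 8 (-0.07). All 14 measured markers of macrophages and Kupffer cells fell (median -0.58, array medians -0.76 to -0.42), as did all 11 measured markers of stellate cells and fibroblasts (median -0.59, array medians -0.78 to -0.34). Of 10 endothelial markers 4 were measured, and 3 of them fell (array medians -0.41 to -0.16). The endothelial markers Stab1, Stab2, Tek, Vwf, Emcn and Clec4g did not pass the filter on background. Among 5 measured cholangiocyte markers 1 rose and 2 fell (array medians -0.13 to 0.3), with Sox9 and Muc1 not past the filter. Of 9 lymphocyte markers 4 were measured and 2 of these fell (array medians -0.12 to 0), with Cd3e, Cd8a, Cd79a, Cd79b and Ms4a1 not past the filter. Fewer cells of a type and less RNA per cell cannot be told apart in such bulk samples, and the part of these shifts in the results below was not tested.

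The genes that rose furthest outside the set-aside lists had, for the most part, no liver-specific role. Ropn1l, which encodes a protein of the sperm flagellum, gave the largest change. Its log2 change was 4.23 on the lowest array, 4.31 at the median and 4.41 on the highest (19.8-fold, SE 0.07, adjusted p = 1.3e-18 in limma). Its 8 arrays lay close together, and those of pravastatin, with a mean of 4.53, covered them. The tetraspanin gene Tspan13 ran from 3.49 over 3.65 to 4.09 (13.3-fold, SE 0.06), with 3.86 under pravastatin. Nfe2, an erythroid transcription factor, rose by 3.53 ± 0.14, and Hba-a1, an alpha globin gene, by 2.96 ± 0.04. Pravastatin gave 3.62 and 2.92 for these genes. Gng13, a G protein gamma subunit, rose by 2.55 ± 0.11, Comp, a cartilage matrix protein, by 2.38 ± 0.11, and Gcat, which breaks down threonine to glycine, by 2.23 ± 0.04. Plekhd1 (1.99), Aldoc, the brain form of aldolase (1.99), Tsx (1.89), Dpysl2, a protein of axon growth (1.86), and Erg28, a scaffold of sterol demethylation that was in no list set aside (1.82), rose as well, and their ranges overlapped with pravastatin. A further probe of Aldoc gave 0.64 and one of Dpysl2 1.06, so the size of these rises depends on the probe. For the pravastatin arrays the mean was above 1 for 15 of the 20 leading genes, and the ranges of both drugs overlapped for 13. The lowest pravastatin array lay far below the pravastatin median for Nfe2 (1.93 against 3.89), Gng13 (1.43 against 2.85), Comp (1.2 against 2.56) and Plekhd1 (0.48 against 2.13). The SQ1 medians of these genes were lower than those of pravastatin (3.56, 2.59, 2.32 and 2). At an adjusted p under 0.05, 11 of the 20 leading genes differed between the drugs, against 37.9% of all genes. Some of them had overlapping ranges, such as Gcat (adjusted p of the difference in limma 0.00036) and Tsx (0.0057).

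For 7 of the 20 leading risers the ranges of the drugs did not overlap, against 10.8% of all genes. These risers had been picked by their rise with SQ1, which favours a larger rise for that drug. Rragd, which encodes the RagGTPase D of the lysosomal nutrient sensor, ran from 1.61 over 2.2 to 2.51 in SQ1-treated cells (4.5-fold, SE 0.07), against 0.05 under pravastatin (adjusted p of the difference in limma 1.8e-11). Gpnmb, a glycoprotein of lysosomes and melanosomes, ran from 1.91 over 2.09 to 2.41 (4.41-fold, SE 0.06), against -0.24. No array of either gene overlapped with the pravastatin arrays. Uap1l1, related to an enzyme of amino sugar synthesis, rose by 1.99 ± 0.04 against 0.09, and Adcy10, the bicarbonate-sensitive adenylyl cyclase, by 2.17 ± 0.2 against 0.15. Cdhr1, a photoreceptor cadherin (2.84 against 1.16), Sdcbp2, which encodes syntenin-2 (2.75 against 1.38), and the short-chain dehydrogenase gene Sdr16c6 (2.17 against 1.24) rose under both drugs and further with SQ1. Rsad2, the antiviral protein viperin, rose by 1.94, from 1.12 over 1.78 to 3.02 (SE 0.35, adjusted p = 8e-05 in limma). Its pravastatin arrays ran from -1.33 to 2.75 and overlapped with these (adjusted p of the difference 0.024).

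**Figure D1:**
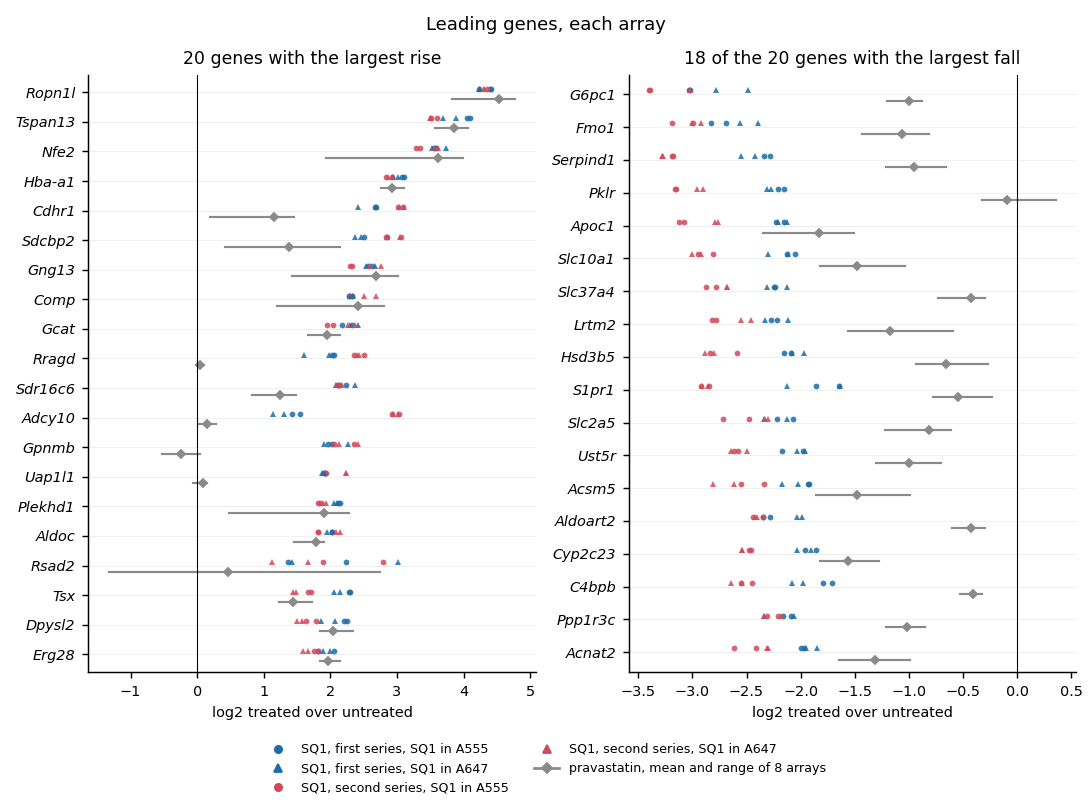
Log2 of treated over untreated for the 20 genes with the largest rise and for 18 of the 20 with the largest fall, outside the lists set aside. Each symbol is 1 SQ1 array (blue for the first and red for the second culture series, circles with SQ1 in A555, triangles with SQ1 in A647), and grey diamonds and lines give the mean and range of the 8 pravastatin arrays. Of the risers 13 overlap with pravastatin, and of the 18 fallers shown 1 does. Over all genes the ranges do not overlap for 10.8%.

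Many of the genes that fell furthest encode liver enzymes, carriers or plasma proteins. G6pc1, the glucose 6-phosphatase that releases glucose, ran from -3.4 over -3.02 to -2.49 (8.11-fold lower, SE 0.06). Every SQ1 array was below -2 for this gene. Others were Fmo1, a flavin monooxygenase (-2.82 ± 0.08), Serpind1, the thrombin inhibitor heparin cofactor II (-2.81 ± 0.11), Pklr, the liver pyruvate kinase (-2.64 ± 0.11), Apoc1 (-2.56 ± 0.12), and Slc10a1, the bile salt importer of hepatocytes (-2.53 ± 0.12). Further down stood Slc37a4, the glucose 6-phosphate carrier of the endoplasmic reticulum (-2.49), Lrtm2 (-2.45), the steroid reductase gene Hsd3b5 (-2.42), S1pr1, a receptor for sphingosine 1-phosphate (-2.35), Slc2a5, the fructose carrier (-2.32), and Ust5r, an organic ion transporter (-2.31). Acsm5, a medium-chain acyl-CoA synthetase (-2.29), Aldoart2, an aldolase A retrogene (-2.28), Cyp2c23 (-2.22), C4bpb, a chain of the complement inhibitor C4b-binding protein (-2.22), Ppp1r3c, a glycogen-targeting subunit of a phosphatase (-2.21), and Acnat2, an acyl-CoA amino acid transferase (-2.18), fell as well. All 20 leading genes fell further with SQ1 than with pravastatin at an adjusted p under 0.05. Over all genes 37.9% differed between the drugs, in either direction. For 18 of the 20 the ranges of both drugs did not overlap, against 10.8% of all genes. The 20 had been picked by their fall with SQ1, which favours a larger fall for that drug. Lrtm2 had a further probe near 0 (-0.03), so its fall rests on 1 probe, and whether the Aldoart2 probe also binds transcripts of its paralogs was not checked.

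Genes under the sugar sensor ChREBP fell together, while wider lists of sugar metabolism did not move one way. A list of 22 genes that ChREBP is known to control or work with, put together after the leading genes had been seen, had 18 measured members, of which 17 fell and none rose, against 31.2% called down over all genes. Its median was -1.56, with array medians from -1.71 to -1.22, and -0.42 under pravastatin. Among carriers, that of glucose, Slc2a2, fell, at -1.31 ± 0.05, and that of fructose, Slc2a5, at -2.32 ± 0.06. Of fructose breakdown, ketohexokinase (Khk) fell, at -1.65 ± 0.05, and so did triokinase (Tkfc), at -1.56 ± 0.04. Pklr, which ends glycolysis in the liver, ran from -3.16 over -2.6 to -2.15 (6.22-fold lower), against a pravastatin range of -0.32 to 0.36. Its arrays of the drugs were thus far apart (adjusted p of the difference 8e-10). Of the genes for glucose release, G6pc1 and Slc37a4 fell, as above. Both subunits that bring a phosphatase to glycogen fell, Ppp1r3b at -0.81 ± 0.05 and Ppp1r3c at -2.21 ± 0.04. Of the factors themselves, Mlxipl, which encodes ChREBP, fell by 0.61 on the log2 scale, its partner Mlx by 0.13, and Adcy6 was the member that did not pass the test (-0.07). Further members were Klf10 (-1.58), Rgs16 (-1.01) and Gckr, the glucokinase regulator (-0.99). Thrsp, which promotes lipid synthesis (-1.55), and Txnip (-0.94) are in this list and also in the lists set aside. A list of fructose and sorbitol metabolism, also chosen after the values were seen and sharing members with it, among them Slc2a5, Khk and Tkfc, had 6 of 7 members down.

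The promoter of Pklr is shown because ChREBP acts through a well-known element in it. The sequence is RefSeq's, in the assembly GRCr8, from the 250 bases before the start of the gene, on the plus strand at chr2:176841061-176841147. Capitals mark CACGGG and CCCGTG with any 5 bases between them, searched on both strands as 1 motif.
Pklr: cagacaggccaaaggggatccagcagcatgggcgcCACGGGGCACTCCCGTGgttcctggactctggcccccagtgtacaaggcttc
The match lies 151 bases before the start. Of 27457 RefSeq promoters of the same length, 1 holds these letters (0.00364%), and it is that of Pklr.

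Of the 31 measured genes of glycolysis and gluconeogenesis 16 fell and 11 rose, with a median of -0.09 that turned to 0.01 with median centring. Among those that fell were Pfkfb1 (-0.8), Fbp1 of gluconeogenesis (-0.84), Pck1 (-0.61) and pyruvate carboxylase, Pc (-0.6). Among those that rose were Pfkp (0.97), the glucose carrier Slc2a1 (0.84), Aldoa (0.65), Pgk1 (0.57) and lactate dehydrogenase A, Ldha (0.51). These 9 genes were picked after their values were seen. In the pentose phosphate pathway, 3 of 7 genes rose and 2 fell, with H6pd at -0.94 ± 0.05 (-0.44 by a further probe). The citric acid cycle had 9 of 21 genes down and 6 up, led by Idh2 (-0.88), Pdhb (-0.81) and Mdh1 (-0.8), with Pdha1 up at 0.56. The medians of both lists, -0.03 and -0.04, turned to 0.17 and 0.06 with median centring. Glycogen metabolism had 9 of 15 genes down and 3 up in a list chosen after the values were seen.

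**Figure D2:**
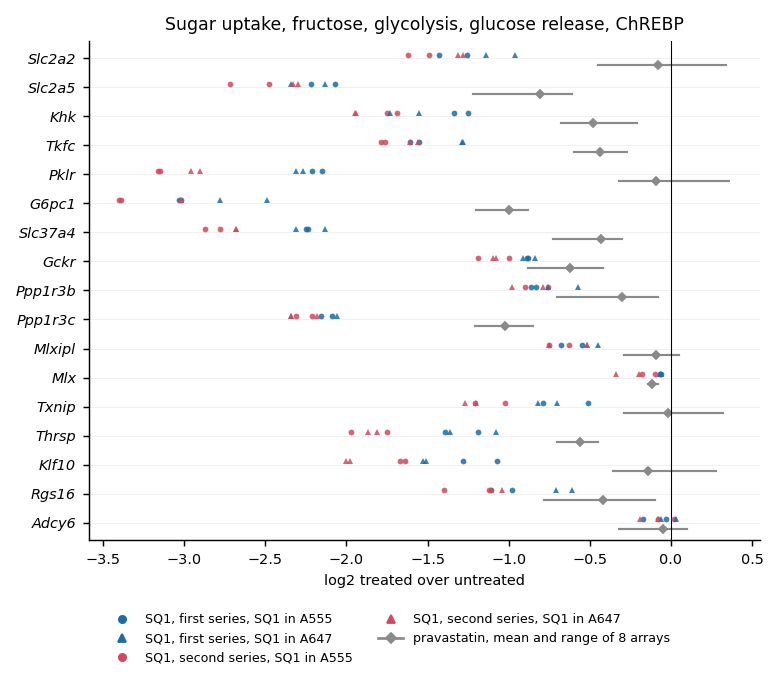
Log2 of treated over untreated for 17 genes of the ChREBP list, with each SQ1 array as a symbol (blue, the first culture series; red, the second; circles, SQ1 in A555; triangles, SQ1 in A647) and the mean and range of the pravastatin arrays in grey. For Pklr and Slc2a2 the SQ1 arrays lie apart from pravastatin arrays around 0.

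Hypoxia-inducible genes, which hold several glycolytic forms, rose in part. In this list, chosen after the values were seen, 12 of 20 measured genes rose and 2 fell, with a median of 0.18 (array medians 0.06 to 0.28) and -0.05 under pravastatin. Ndrg1, a stress-responsive gene, ran from 0.97 over 1.47 to 1.95 (SE 0.09), and the lactate exporter Slc16a3 rose by 1.36 ± 0.06. Bnip3, a mitophagy receptor, rose by 1 ± 0.04. Vegfa (0.08), Hk2 (0.05) and Pfkfb3 (0.06) did not pass the test, and Pdk1 fell by 0.11 on the log2 scale.

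Genes that join acids to coenzyme A or amino acids fell together. All 8 measured members of a list of medium-chain acyl-CoA synthetases and acyl conjugation enzymes, chosen after the values were seen, fell. Each fell by at least 1.5-fold, which 4.39% of all genes did, with a median of -1.88 and -0.56 under pravastatin. Besides Acsm5 and Acnat2 they were Slc27a5, the bile acid CoA ligase (-2.14 ± 0.06, against 0.02 under pravastatin), Acsm3 (-2.02), Baat, which joins bile acids to glycine or taurine (-1.73), Glyat (-1.01), Acsm2 (-1) and Acsm1 (-0.67). Flavin monooxygenases, a list of the same origin, fell too, among them Fmo1, Fmo5 (-1.14), Fmo4 (-0.7) and Fmo2 (-0.13).

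Genes of secreted plasma proteins fell almost throughout. In coagulation and fibrinolysis 22 of 23 measured genes fell and none rose, against 31.2% down and 32.6% up over all genes. At least 1.5-fold lower were 15 of them, against 4.39% of all genes. The list had a median of -0.69 and array medians from -0.86 to -0.53. Beside Serpind1 the furthest were Hrg, the histidine-rich glycoprotein (-1.74 ± 0.06), and the fibrinogen chains Fgb (-1.42 ± 0.04) and Fga (-1.22 ± 0.06). Complement had 18 of 19 genes down and 1 up, with a median of -0.72, led by C4bpb, which ran from -2.64 over -2.27 to -1.71 against -0.41 under pravastatin. Masp1, a protease of the lectin pathway (-1.44), and C6 of the membrane attack complex (-1.16) followed, and 2 further probes of Masp1 gave only -0.61 to -0.4. Plasma carriers and protease inhibitors had 20 of 21 genes down and 1 up (median -0.77), with Serpina3n at -1.73, the selenium carrier Selenop at -1.48, the retinol carrier Rbp4 at -1.25 and Azgp1 at -1.2. Among apolipoproteins and lipoprotein handling 16 of 17 genes fell and 1 rose (median -0.54), among them Apoc1, Apoc2 (-1.62) and the cholesterol esterifying enzyme Lcat (-1.47). Pravastatin medians for these 4 lists lay between -0.35 and -0.25. Hepatocyte markers fell beside them, as given above, and some of those genes are in both.

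Several of these genes carried a dye effect. Alb averaged -0.96 where SQ1-treated RNA was in A555 and -0.15 where it was in A647, Ttr -0.83 and 0.36, Apoe -1.17 and -0.26, and haptoglobin (Hp) -1.6 and -0.41. The mean over both orientations cancels this effect, but the range over single arrays holds it, and for Ttr the sign turned with the dye. Metallothionein Mt1 did the same (-0.94 and 0.54), and its mean of -0.2 was 0.05 with median centring. Wide ranges over single arrays also occurred in genes named below, such as Ftl1 (0.46 to 1.79), Ugt1a6 (0.05 to 1.5) and Sult1a1 (-2.25 to -0.75). For all of these the range overlapped with that of pravastatin, and the part of the dye in them was not tested. The genes named as leading changes had been required to have the same sign on all 8 arrays.

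Most genes of amino acid breakdown and of the urea cycle fell. Of 52 measured genes of amino acid catabolism 45 fell and 4 rose, with a median of -0.51 (array medians -0.62 to -0.42) and -0.34 under pravastatin. Hgd, of tyrosine breakdown, fell furthest (-1.79 ± 0.08), then Bhmt, which returns homocysteine to methionine (-1.58 ± 0.1), Ftcd, of histidine breakdown (-1.37 ± 0.04), and the methyl group buffer Gnmt (-1.31 ± 0.04). In the urea cycle 5 of 6 measured genes fell: Arg1 (-1.76), Cps1, which starts the cycle (-1.59), Otc (-1.34), Ass1 (-1.07) and Nags (-0.68). Asl rose, by 0.2. The list's median was -1.2, against -0.47 under pravastatin. Genes of serine, glycine and folate metabolism went the other way in part, with 7 of 12 up and 3 down, led by thymidylate synthase, Tyms (0.7).

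Genes that mark the zones of the liver lobule were read as a pair of lists, whose difference was not tested. Of 19 measured periportal genes 18 fell and 1 rose (median -0.55), and several of these are the urea and glucose genes above. Of 19 pericentral genes 6 fell and 8 rose (median 0.02), with Cyp2e1 (-2 ± 0.13), Cyp7a1, which starts the classic route from cholesterol to bile acids (-1.73 ± 0.13), and the Wnt inhibitor Notum (-1.24) down, and Slc13a3, a dicarboxylate carrier, up (1.31 ± 0.06). Pravastatin gave -0.27 and -0.04 for these medians.

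Drug-metabolising genes outside the CAR and PPARalpha lists mostly fell, with exceptions. Of 36 measured cytochromes P450 21 fell and 11 rose (median -0.45). Cyp2c23 ran from -2.54 over -2.25 to -1.86, Cyp2c11, the main male-specific form of rat liver, from -2.38 over -2.22 to -1.81 (SE 0.05), and neither range reached 0. Cyp1a2, a target of the aryl hydrocarbon receptor, rose by 0.78 ± 0.12, and Cyp1a1, of the same receptor, gave -0.05 and did not pass the test. In a list of 14 sulfotransferases, methyltransferases and other transferases 8 fell and 2 rose. Sult1a1 (-1.54), Sult2a6 (-1.47) and the N-acetyltransferase gene Nat1 (-1.46) were down. Sult1c2a ran from 1.47 over 1.69 to 2.01, with every array up. Glutathione transferases fell in 10 of 16 cases and rose in 5, led by Gstt2 (-1.24), Gstz1 (-1.02) and Gstm2 (-1). Among 12 genes of a glucuronosyltransferase list 4 rose and 3 fell, with Ugt1a6 at 0.84. Its fallers include Ugp2 (-0.39), which makes UDP-glucose and is not a member of that family. Of 8 genes in a carboxylesterase list 5 rose and 3 fell, with Aadac, a deacetylase outside that family, at -1.48. Alcohol and aldehyde dehydrogenases had 10 of 17 down and 5 up, with Aldh9a1 at -0.66. Some of these families have close paralogs whose probes may bind each other's transcripts.

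Of 17 uptake and efflux carriers of the hepatocyte surface 10 fell and 3 rose (median -0.36). Slc10a1 ran from -3 over -2.55 to -2.05 (5.79-fold lower), and the organic anion carriers Slco1a1 (-1.36) and Slco2b1 (-1.35) and the transporter Abcc6 (-0.99) followed. The efflux pumps Abcc4 and Abcg2, named after their values were seen, both rose by 0.71.

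Transcription factors of the liver fell in 23 of 31 measured cases and rose in 5, with a median of -0.24 and array medians from -0.37 to -0.15. Klf15, a glucocorticoid-induced regulator of amino acid and glucose use, fell by 1.47 on the log2 scale, Foxa1 by 1.44, and Nr1h4, the bile acid receptor, by 1.38. Nr1i3, which encodes CAR, had a mean of -0.89 ± 0.15 and 1 array at 0.77, while a further probe gave -1.5. For Foxa1 a further probe gave only -0.25. Hnf4a fell by 0.08 on the log2 scale (adjusted p = 0.026 in limma). Receptors for growth factors and cytokines fell in 14 of 22 cases and rose in 1 (median -0.22), led by the interleukin 6 receptor Il6r (-1.47 ± 0.05, against -0.23 under pravastatin) and the glucagon receptor Gcgr (-1.23 ± 0.03, against -0.29). In the growth hormone axis 12 of 19 genes fell and 4 rose, with the growth hormone receptor, Ghr, at -1.42 ± 0.05 against -0.16 under pravastatin. Retinoid genes had 10 of 16 down and 2 up, led by Rarres1 (-1.31). The Kruppel-like factors were split, with 4 of 14 down, Klf10 and Klf15 among them, and 4 up, led by Klf4 (1.24). Of 156 zinc finger protein genes 86 fell and 22 rose, most by little (median -0.11). At least 1.5-fold lower were 6 of them (3.85%), near the 4.39% of all genes.

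Lysosomal genes rose. Of 29 measured genes of lysosomes and autophagy 19 rose and 4 fell, against 32.6% called up over all genes, with a median of 0.27 (array medians 0.12 to 0.45) and -0.06 under pravastatin. Npc2, which carries cholesterol out of lysosomes and is also in a list set aside, ran from 0.83 over 0.98 to 1.17, and the acid alpha-glucosidase Gaa from 0.63 over 0.86 to 1.03. The protease cathepsin L (Ctsl) rose by 0.76 ± 0.03 and the sialidase Neu1 by 0.69 ± 0.03. Subunits of the proton pump that acidifies lysosomes, a list added after the values were seen, rose in 13 of 22 cases and fell in 2 (median 0.32, array medians 0.23 to 0.41; 0.02 under pravastatin). Atp6v0d2 rose by 1.34 ± 0.04, Atp6v1d by 1.2 ± 0.05, Atp6v0a1 by 0.9 ± 0.06 and Atp6v0b by 0.74 ± 0.03, and Atp6v0a1 rose as far with pravastatin (0.76). A list of MiT/TFE target genes, of the same origin, had 9 of 17 genes up and 3 down (median 0.15). Besides Rragd and Gpnmb its risers included Flcn, which acts on the RagGTPases (0.82 ± 0.04, against -0.11), and Rragc (0.43 ± 0.03, against 0.1). The factors Tfeb (0.01) and Mitf (0.03) did not pass the test. Macrophages, which are rich in lysosomes, had a marker median below 0 on all arrays (above), and their part in these rises was not tested.

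**Figure D3:**
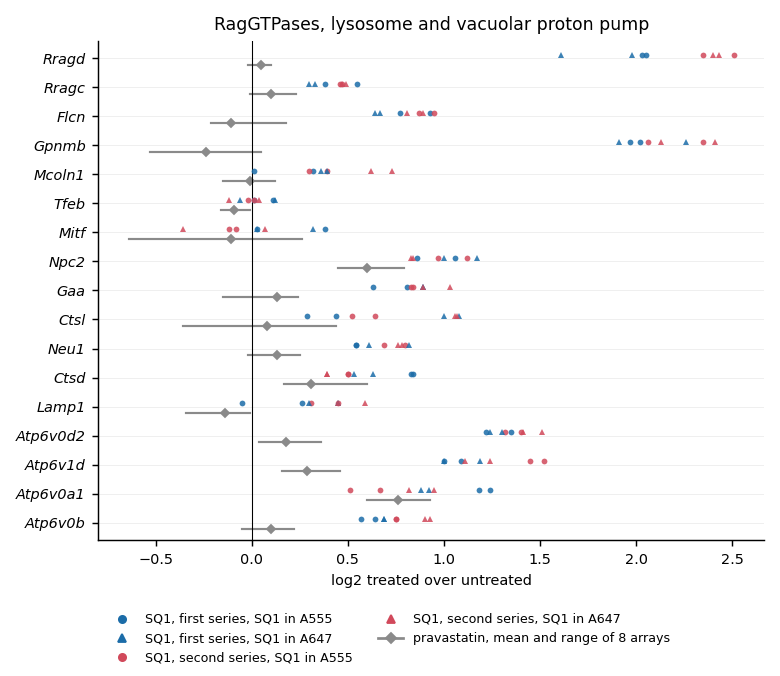
Log2 of treated over untreated for genes of the RagGTPase sensor, the lysosome and the vacuolar proton pump. Each symbol is 1 SQ1 array (blue, the first culture series; red, the second; circles, SQ1 in A555; triangles, SQ1 in A647), and grey gives the mean and range of the 8 pravastatin arrays. Rragd and Gpnmb lie above 1.5 on every SQ1 array and near 0 with pravastatin, while Tfeb and Mitf lie around 0.

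Promoters of a pair of risen lysosomal genes are shown because MiT/TFE factors bind the letters TCACGTGA, a palindrome that reads alike on both strands, marked in capitals. They are RefSeq's in GRCr8, on the minus strand at chr1:206968822-206968867 (Ctsd) and chr16:83075064-83075164 (Lamp1).
Ctsd: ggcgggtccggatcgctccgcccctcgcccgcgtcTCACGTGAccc
Lamp1: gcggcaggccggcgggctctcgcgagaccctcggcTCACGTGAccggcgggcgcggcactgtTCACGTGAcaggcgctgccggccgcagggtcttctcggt
Cathepsin D (Ctsd) rose by 0.58 ± 0.04 and Lamp1, a protein of the lysosomal membrane, by 0.34 ± 0.05. These 2 of the 22 lysosome promoters found hold the letters (9.09%), against 0.743% of all 27457 promoters and 1.32% of those of measured genes. Among genes at least 1.5-fold up 7 of 361 promoters did (1.94%), and of those at least 1.5-fold down 5 of 533 (0.938%). The letters are not particular to lysosomal genes: 2 of 27 promoters of the DNA replication and mitosis list (7.41%) and 2 of 13 of the ChREBP list (15.4%), that of the fallen Ppp1r3c included, held them too.

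Stress genes moved in different directions by pathway. In the integrated stress response 13 of 20 genes rose and 6 fell (median 0.31; 0 under pravastatin). The amino acid carrier genes Slc3a2 (1.04 ± 0.06) and Slc7a3 (0.85 ± 0.05) and Vldlr (0.85 ± 0.08) rose, Nupr1 fell by 0.84 on the log2 scale, and Asns, a standard target of the pathway, fell by 0.08, or was at 0.08 upward with median centring. Heat shock chaperones rose in 10 of 13 cases and fell in 1, none by 1.5-fold, led by Hspb8 (0.54) and Hspa8 (0.48). Chaperones and folding enzymes of the endoplasmic reticulum fell in 18 of 21 cases and rose in 2 (median -0.28), with Derl3 (-0.69, and -0.27 by a further probe), P4hb (-0.68) and Hsp90b1 (-0.59) down and Canx up (0.65). Of 26 antioxidant genes and NRF2 targets 12 rose and 9 fell. Hmox1, which breaks down haem, ran from 1 over 1.44 to 1.9 (2.77-fold, SE 0.06), against -0.32 under pravastatin. Gpx2 rose by 0.88 under SQ1 and 0.94 under pravastatin, Srxn1 by 0.72, and the NRF2 target Nqo1 did not pass the test (0.01). Iron genes were split, 5 of 15 up and 6 down, with the ferritin light chain Ftl1 at 1.12 ± 0.03, and the iron hormone hepcidin (Hamp) at -0.57 ± 0.08, against 0.76 under pravastatin. Of 6 metallothionein and zinc carrier genes 4 fell and none rose.

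Cell cycle genes fell and a part of the p53 targets rose. Of 36 measured genes of DNA replication and mitosis 28 fell and 4 rose (median -0.43, array medians -0.49 to -0.36, and -0.17 under pravastatin). At least 1.5-fold lower were 13 of the 36 (36.1%), against 4.39% of all genes. Rrm2, a subunit of ribonucleotide reductase, ran from -2.11 over -1.88 to -1.63 (3.67-fold lower; -1.24 by a further probe), and Cdk1, the kinase that starts mitosis, from -1.81 over -1.75 to -1.54 (3.27-fold lower). Both were apart from the pravastatin arrays, with means of -0.35 and -0.46. Cyclin A2 (Ccna2) fell by 1.38 on the log2 scale and Ube2c, which works with the anaphase-promoting complex, by 1.32. Pcna rose by 0.46, together with Tyms. Of 28 p53 targets and apoptosis genes 16 rose and 5 fell (median 0.16), with Plk2 at 0.68, Bax at 0.55, Aen at 0.52 and Ccng1 at 0.52, all under 1.5-fold but Plk2. Cdkn1a, a well-known target, fell by 0.29 on the log2 scale, and a further probe gave -0.06.

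The Cdk1 promoter is shown because cell cycle genes of this kind carry CCAAT boxes and a CHR element near their start. It lies on the plus strand at chr20:19265177-19265292 in GRCr8, from RefSeq, with ATTGG (the CCAAT box on the other strand) and TTTGAA in capitals, both searched on either strand.
Cdk1: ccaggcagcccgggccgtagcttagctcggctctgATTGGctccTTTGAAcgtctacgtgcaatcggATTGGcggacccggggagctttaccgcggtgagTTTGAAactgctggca
These short letters are common: 34.3% of all 27457 promoters hold ATTGG and 16% TTTGAA. Of the 27 cell cycle promoters found 63% held the former and 22.2% the latter. Other lists reached like shares, with ATTGG in 53.8% of 13 ChREBP list promoters and TTTGAA in 41.7% of 12 complement promoters.

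Inflammatory genes had no common direction. Acute phase genes fell in 11 of 19 cases and rose in 6 (median -0.3), with Hp at -1.01 ± 0.04 and C-reactive protein, Crp, up by 1.14 ± 0.07. Of 26 chemokine genes 11 fell and 5 rose, with Cxcl1 (-1.16) and Ccl12 (-1.1) down and Cxcl9 (1.34 ± 0.06) and Ccl20 (1.12 ± 0.1) up. Interferon-responsive genes rose in 12 of 27 cases (44.4%, against 32.6% of all genes) and fell in 5 (18.5%, against 31.2%). Rsad2, Ifit3 (0.96 ± 0.17) and Stat2 (0.75 ± 0.03) were up and Mx2 was down (-0.73 ± 0.06), and Stat2 rose as far with pravastatin (0.68). Macrophage markers fell beside these genes, and their part was not tested.

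Matrix, adhesion and fetal genes fell in part, beside the fall of the stellate cell markers. Of 20 collagens and laminins 12 fell and 2 rose (median -0.2). Col5a3 ran from -2.13 over -2.02 to -1.8 (SE 0.06), against 0.14 under pravastatin, Col3a1 fell by 0.77 on the log2 scale, and Lamb3 rose by 1.04. YAP and TGFbeta targets had 14 of 21 down and 2 up (median -0.18), led by Id2 (-1.18) and Tgfb3 (-0.94). Genes of dedifferentiation and fetal liver had 13 of 25 down and 6 up, led by S100a4 (-1.02) and the epithelial-mesenchymal factor Snai2 (-0.83). Growth factor response genes had 13 of 26 down and 4 up, with Dusp1 at -0.75 and Fosl1 at 0.89. Integrins (9 of 18 down, 4 up), tight and gap junctions (8 of 18 down, 8 up) and keratins and actin genes (10 of 34 down, 14 up) were mixed.

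Large complexes moved little but often one way. Respiratory chain subunits fell in 53 of 68 cases and rose in 3, with a median of -0.18. Past 1.5-fold was 1 gene in either direction (1.47% each), against 3.03% up and 4.39% down over all genes. The subunits past 1.5-fold were Cox6a2, the muscle form of a cytochrome oxidase subunit (1.42 ± 0.1), and Ndufv2 (-0.65 ± 0.02). Cytosolic ribosomal proteins rose in 43 of 78 cases and fell in 3 (median 0.09, also 0.09 under pravastatin), and array medians ran from -0.15 to 0.35. Translation factors (31 of 56 up, 7 down), proteasome subunits (25 of 46 up, 5 down) and aminoacyl-tRNA synthetases (11 of 19 up, 2 down) had medians of 0.11, 0.09 and 0.15. Among the translation factors Eif4ebp3, which holds back cap-dependent translation, ran from -2.36 over -1.96 to -1.56, against 0.28 under pravastatin, with every array well below 0. Mitochondrial ribosomal proteins (23 of 66 up, 21 down), splicing factors (14 of 42 up, 13 down), Rab GTPases (19 of 51 up, 15 down, with Rab30 at 1.28 ± 0.08), mitochondrial carriers (14 of 34 up, 13 down), tubulins (8 of 19 up, 6 down), histone genes (6 of 28 up, 13 down) and peroxisome biogenesis (4 of 16 up, 6 down) had no clear direction. Phospholipid and sphingolipid synthesis rose in 16 of 27 cases and fell in 5 (median 0.25), with Asah1 (0.74) and Chka (0.63) up and Pemt down (-0.93). Genes that use isoprenoids for prenylation, dolichol or ubiquinone rose in 15 of 28 cases and fell in 5, by little, with Coq8a, a ubiquinone kinase, at -1.3 ± 0.07. Lipid droplet genes (7 of 19 up, 8 down, with Hsd17b13 at -1.29) and clock genes (5 of 15 up, 5 down, with Ciart at 1.22 and Dbp at 0.98) were split.

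**Figure D4:**
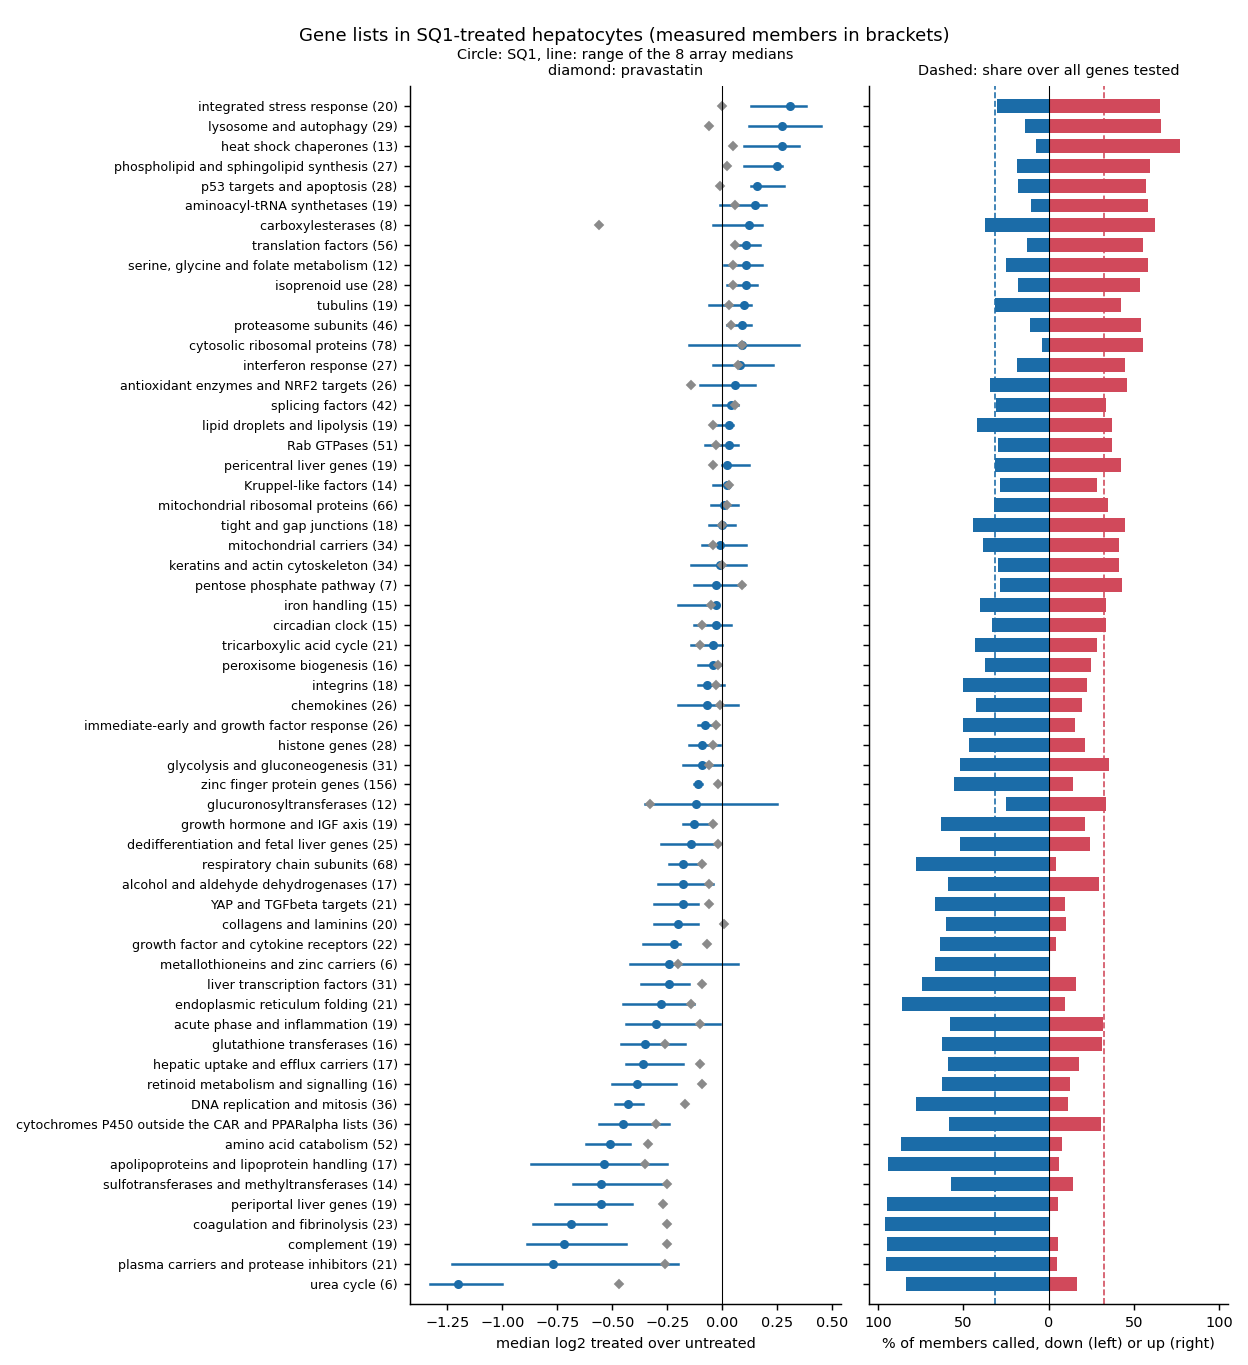
Medians over the members of 60 gene lists on the log2 scale (left; circles for SQ1 with the range of the medians of its 8 arrays, diamonds for pravastatin) and the percent of measured members called up (red, to the right) or down (blue, to the left). Dashed lines give the shares over all genes, 32.6% up and 31.2% down; urea cycle and plasma protein lists lie lowest and stress response and lysosome lists highest.

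Outside the set-aside lists, SQ1 and pravastatin differed most in a few sugar, bile acid, collagen and lysosome genes. Among the 8 genes with the largest differences were Pklr (-2.64 with SQ1, -0.09 with pravastatin), Gpnmb (2.14 and -0.24), Sult1c2a (1.7 and -0.62), Eif4ebp3 (-1.96 and 0.28), Slc27a5 (-2.14 and 0.02), Col5a3 (-1.99 and 0.14) and Rragd (2.17 and 0.05). All 8 had an adjusted p of 8e-10 or lower in limma for the difference and arrays that did not overlap. They were picked as called genes with the largest difference, so both follow largely from that choice. Over all genes the ranges of the drugs did not overlap for 10.8%. At least 1.5-fold in opposite directions, outside the set-aside lists, were Sult1c2a and Cyp1a2 (0.78 and -0.77). SQ1 was given at 100 µM and pravastatin at 30 µM, on separate slides, and compound, dose and slide cannot be told apart in these values.

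The change after SQ1 was larger in the second culture series for most fallen genes. Of the 911 genes at least 1.5-fold down, 812 (89.1%) fell further in the second series, with medians of -0.69 and -0.92, and of the 629 at least 1.5-fold up, 414 (65.8%) rose further, with medians of 0.81 and 0.93. All 1540 had the same sign in both series. The difference was called for 12.5% of all genes. Adcy10 gave the largest one: the first series averaged 1.35 and the second 2.98, with no array in common range (adjusted p = 1.9e-06 in limma). Then came S1pr1 (-1.82 and -2.88), Akr1d1, a bile acid reductase (-1.01 and -2.03), Aqp9, the glycerol channel of hepatocytes (-1.18 and -2.18), Fam13a (-1.01 and -1.99), Dhrs7l1 (-1.46 and -2.33), Serpind1 (-2.4 and -3.23) and Slc45a3 (-1.63 and -2.44, with -1.13 over all arrays by a further probe). Culture series, scan day and slide cannot be told apart.

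**Figure D5:**
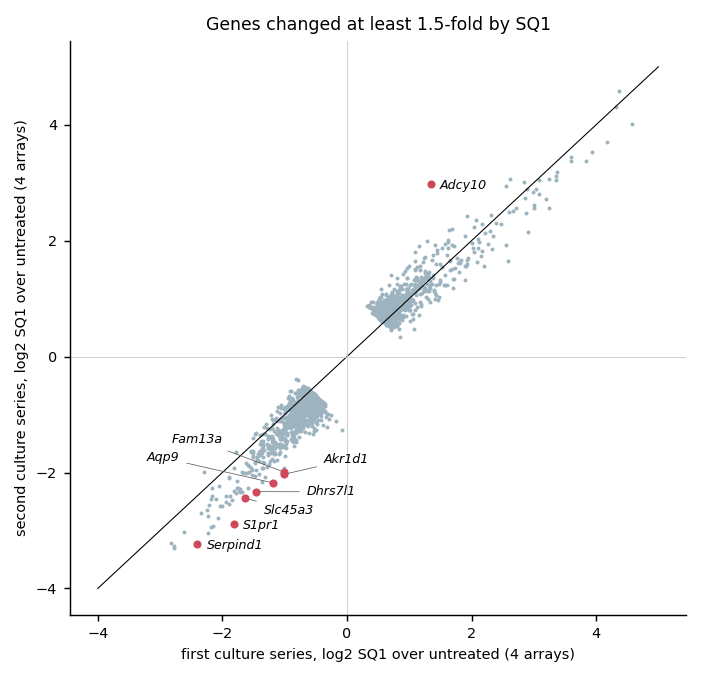
Mean log2 change after SQ1 in the first (horizontal) and the second (vertical) culture series, 4 arrays each, for the 1540 genes changed at least 1.5-fold. The line marks equal change, fallen genes lie mostly below it, and the 8 genes with the largest difference are named.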

How the data were processed

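RNA of treated and untreated rat hepatocytes was put on 16 2-colour Agilent arrays, 8 for SQ1 and 8 for pravastatin, and per the file headers the authors' images were read with Feature Extraction 10.7.1.1. For each spot the deposited files give spot and background intensity in both dyes, a processed intensity that the software had background-subtracted and dye-normalised, and a log10 ratio of A647 over A555, per the file headers. The deposited value table holds log2 ratios whose scale, centring and direction the sources used here do not state, and it served only to see which array each column holds. Samples were grouped by the drug in their titles. Replicate numbers come from the titles and the dye orientation from the dye labels.

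Intensities were corrected with normexp (offset 50) and normalised by loess within arrays in limma 3.58.1 (R 4.3.3), with control spots left out, and each ratio was turned to treated over untreated. A probe was kept if it was well above background in 6 or more of the 32 channel measurements, and the brightest probe stood for a gene. Symbols came from matching each probe's systematic name to RefSeq transcripts, and 12369 of 30367 probes got no symbol in this way. A linear model over 16 arrays with a dye term was fitted with lmFit and eBayes, and p-values were adjusted by Benjamini-Hochberg over 20753 genes. The number of arrays limits the precision. Scripts were tested on simulated data.

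Named genes are the 20 largest called rises and falls outside the set-aside lists with the same sign on 8 of 8 arrays and well above background in both channels of every SQ1 array, the 8 largest differences between drugs and between culture series, and up to 4 genes per list, plus genes said to be chosen after their values were seen, targets of a named factor and genes of printed promoters. A few genes that these rules choose are not reported here, while counts and medians of lists include them. The members and lists were chosen with earlier results of these data known. The residuals of same-numbered SQ1 and pravastatin arrays correlated at 0.142 to 0.629 over 8 pairs. For 5 of the 8 SQ1 arrays the same-numbered pravastatin array was the best match, so pairing by number is likely but not certain. Alternatives changed the background correction, normalisation, filter, probe rule, samples, series, block and fold. Promoters are RefSeq's (GRCr8), matched by symbol.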

Additional observations from a re-analysis of the deposited data

Results flagged for a closer look

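On 1 array, SQ1 replicate 5, Nr1i3, which encodes CAR, was at 0.77 while the other 7 arrays ran from -1.44 to -0.41. The median of the cholangiocyte markers was 0.3 on SQ1 replicate 1, against -0.13 to 0.04 on the others. Such a lone sample arises by chance in about 1 in 20 groups, and 213 genes and 74 lists were looked at.

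The change after SQ1 differed between the culture series, by a test of the difference itself in limma, for 109 of the 213 genes named, against 12.5% of all genes. The named genes were chosen for large changes. Values are second minus first series on the log2 scale. Genes of sugar, glycogen and energy metabolism that fell further in the second series were Pklr (-0.81), Thrsp (-0.6), Slc37a4 (-0.52), Klf10 (-0.47), Txnip (-0.47), G6pc1 (-0.38), Khk (-0.36), Rgs16 (-0.31), Tkfc (-0.25), Slc2a2 (-0.22), Gckr (-0.21), Mdh1 (-0.2) and Pfkfb1 (-0.19). Plasma protein and lipoprotein genes that did so were Serpind1 (-0.83), Apoc1 (-0.76), C4bpb (-0.66), Selenop (-0.55), Alb (-0.46), Hrg (-0.42), C6 (-0.39), Rbp4 (-0.37), Azgp1 (-0.29), Ttr (-0.27), Lcat (-0.25), Apoc2 (-0.24) and Serpina3n (-0.23). In amino acid, bile acid, acyl and drug metabolism they were Akr1d1 (-1.02), Dhrs7l1 (-0.87), Slc10a1 (-0.77), Hsd3b5 (-0.7), Acsm3 (-0.63), Arg1 (-0.59), Acsm5 (-0.57), Cyp2c23 (-0.57), Cyp2e1 (-0.57), Ust5r (-0.55), Glyat (-0.52), Hgd (-0.51), Bhmt (-0.5), Acsm2 (-0.47), Acnat2 (-0.46), Abcc6 (-0.45), Aadac (-0.43), Slco1a1 (-0.42), Aldh9a1 (-0.42), Fmo1 (-0.41), Sult1a1 (-0.4), Sult2a6 (-0.4), Baat (-0.39), Nat1 (-0.39), Fmo5 (-0.36), Gstt2 (-0.32), Otc (-0.27) and Slco2b1 (-0.16). Regulators, receptors and secreted signals were Nr1h4 (-0.6), S1pr1 (-1.06), Cxcl1 (-0.62), Notum (-0.53), Foxa1 (-0.43), Rarres1 (-0.42), Eif4ebp3 (-0.38), Snai2 (-0.37), Ghr (-0.33), Il6r (-0.28) and Ccl12 (-0.22). The remaining genes of this kind were Aqp9 (-1), Fam13a (-0.97), Slc45a3 (-0.81), Pemt (-0.5), Coq8a (-0.42), Lrtm2 (-0.42), Mx2 (-0.4), Col3a1 (-0.34), Derl3 (-0.32) and Aldoart2 (-0.24).

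Genes that rose further in the second series were Adcy10 (1.63), Ndrg1 (0.71), Rab30 (0.58), Plk2 (0.52), Rragd (0.51), Hmox1 (0.47), Vldlr (0.46), Slc2a1 (0.44), Cdhr1 (0.44), Cxcl9 (0.43), Slc13a3 (0.42), Aldoa (0.41), Cox6a2 (0.41), Sdcbp2 (0.39), Fosl1 (0.37), Slc3a2 (0.35), Sult1c2a (0.34), Pfkp (0.33), Srxn1 (0.33), Ccng1 (0.3), Hspa8 (0.28), Ugt1a6 (0.26), Bax (0.24) and Atp6v0b (0.19). The rise was smaller in the second series for Tsx (-0.62), Cyp1a2 (-0.61), Dpysl2 (-0.47), Tspan13 (-0.4), Crp (-0.4), Ctsd (-0.27), Dbp (-0.27), Erg28 (-0.24) and Plekhd1 (-0.23), and the fall was smaller for Slc27a5 (0.3).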

How the results depend on the processing

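The 629 rises and 911 falls of at least 1.5-fold became 1092 and 1592 with Agilent's processed signals, 372 and 487 with scale normalisation between arrays, 406 and 511 with limma's treat test against 1.5-fold, and 229 and 269 at 2-fold. Leaving out 1 SQ1 array gave 613 to 655 rises and 862 to 965 falls, and the first and the second culture series alone gave 555 and 651, and 770 and 1251. Median centring gave 774 and 761, so the excess of falls was absent there. The difference between culture series, called for 2592 genes, was called for 1691 with processed signals and 6638 with median centring, both chosen after seeing the data. With the replicate number as a random block (correlation 0.393) the counts past 1.5-fold were 629 and 911 and 13068 genes were called, and as a fixed block 9867 genes differed between the drugs, against 7865.

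Medians of lists near 0 changed sign, by more than the spread between arrays, with median centring: iron handling 0.05, glycolysis and gluconeogenesis 0.01, pentose phosphate pathway 0.17, citric acid cycle 0.06, tight and gap junctions 0.08, keratins and actin 0.09, and peroxisome biogenesis 0.01. Tight and gap junctions gave 0.04 with the mean of probes, and the pentose phosphate pathway 0.09 in the first series alone. By less than that spread, glucuronosyltransferases (0.06) and mitochondrial carriers (0.05) turned with median centring, glucuronosyltransferases (0.08), mitochondrial carriers (0.03), mitochondrial ribosomal proteins (-0.01) and cholangiocyte markers (0.02) in the first series alone, and keratins and actin (0.03) in the second. Of the list medians under the other settings, 81 moved by more than the spread between arrays and 724 did not. Among single genes, median centring turned Asns (0.08), Mt1 (0.05), Ttr (0.01) and Tfeb (-0.03), and processed signals turned Tfeb (-0.04). In the second series alone Cyp1a1 (0.08), Mitf (-0.12), Nqo1 (-0.07) and Tfeb (-0.02) turned, of which none was called. Without 1 SQ1 array Mitf ran from -0.03 to 0.1, Nqo1 from -0.01 to 0.03 and Tfeb from -0.01 to 0.03. Differences between the drugs changed sign with processed signals for Cyp7a1 (0.26), Hba-a1 (-0.01) and Plekhd1 (-0.12), and with median centring for Azgp1 (0.06) and Mlx (0.02), none of them called under that setting. Among the other single-gene values outside the leave-one-out fits, 17 lost their call and 9 gained one with the same direction, while 2307 kept both. The cause of these shifts was not tested.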
